A study of Arabidopsis thaliana with 54 samples.

Results

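The chloroplast-encoded genes of Arabidopsis thaliana were taken as every row of the deposited expression table whose locus identifier begins with ATCG, the prefix of genes on the plastid chromosome. This gave 120 of the 23997 rows used: 78 protein-coding rows, 34 tRNA rows and 8 rRNA rows. Members were grouped by the complex their product belongs to, and they are named below by the symbols of the table. Of the 120 rows, 73 reached a mean of at least 1 FPKM (a read density corrected for gene length and library depth) in at least 1 of the 18 groups and were tested, and 47 were not tested. The tested rows passed in part because they were high in some group, so their counts are read beside the share of all 10622 genes tested. Of all 120 rows, 14 were listed at 0 in all 54 libraries, 38 were above 0 in every library, and 44 had a median of at least 10 implied reads per library. Chloroplast genes with no row in the table used, among them psbA, psbK, psbI, psbM, atpH, atpE, psaJ, clpP, rpl16 and rpl32, were not analysed here.

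RNA of whole seedlings was sequenced after 5, 30 or 180 min with 1 of 5 compounds or without one (control). The compounds were guvermectin (GV, 10 µM), the auxin indole-3-acetic acid (IAA, 1 µM), the cytokinin trans-zeatin (ZT, 1 µM), epibrassinolide, a brassinosteroid (eBL, 1 µM), and gibberellin acid 3 (GA3, 1 µM). Each of the 18 groups had 3 libraries. The labels do not give the seedlings' age or ecotype. Nor do they tell whether the 3 libraries of a group were grown apart, and a p-value here therefore reflects only how far these libraries differ, which could be technical variation. In whole seedlings, fewer cells with chloroplasts and less chloroplast RNA per cell cannot be told apart.

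The plastid genome of land plants descends from that of a cyanobacterium and keeps genes for photosynthesis, for its own transcription and for its own translation. It is read by different kinds of RNA polymerase. The plastid-encoded polymerase, with core subunits from rpoA, rpoB, rpoC1 and rpoC2, depends on sigma factors made in the nucleus and transcribes mainly photosynthesis genes, while nucleus-encoded phage-type polymerases transcribe the rpoB operon and many housekeeping genes. Most plastid genes lie in clusters that are transcribed together and then cut and trimmed, so neighbouring genes can share transcripts. Mature plastid mRNAs mostly lack the long poly(A) tail of nuclear mRNAs, and a short tail added to plastid RNA marks it for decay.

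Some members overlap on the genome, so reads from the shared bases cannot be assigned to 1 gene, and the 2 overlapping pairs below take part in the results. The sequences are given because they show how much of each pair is shared. They were read from the RefSeq chloroplast genome (TAIR10.1) at the coordinates of the table, which equal a RefSeq gene start and end for 110 of the 120 rows. Capitals mark the start codon of the gene that begins in the overlap and the stop codon of the gene that ends in it. PSBC begins within the last 53 bases of PSBD on the plus strand, Pt:33720-33772, and RPS3 begins within the last 16 bases of RPL22 on the minus strand, Pt:83467-83482.
PSBD/PSBC overlap: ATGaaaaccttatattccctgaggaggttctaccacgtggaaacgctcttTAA
RPL22/RPS3 overlap: ATGggacaaaaaaTAA
Other neighbours named below do not overlap: PSAA is followed by PSAB after 25 bases, RPOB by RPOC1 after 26 bases and RPOC1 by RPOC2 after 182 bases. Of the single-copy protein genes the results turn on, ATPB lies at Pt:52660-54156, RPOC1 at Pt:20251-23084, PSAA at Pt:39605-41857 and PSAB at Pt:37375-39579 on the minus strand, and PSBB at Pt:72371-73897 on the plus strand.

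The label of the set was borne out by the table's own coordinates, and few reads fell on its rows in every library. Per library 1925 to 4025 implied reads fell on chloroplast rows, with a median of 2908.5. That was a share of 95.4 to 204 rpm (parts per 1000000 of the mapped reads of a library), against 6.64 to 35.5 for the mitochondrial rows. A single read in a gene of 1 kb was worth 0.0421 to 0.0562 FPKM. Nuclear genes that mark green tissue were abundant, with a summed level of 9662 to 23624 FPKM for the small subunits of Rubisco and 2 light-harvesting proteins, whereas 5 root markers summed to 2.78 to 27.4 FPKM. The rows used held no gene with a mean between 10.5 and 344 FPKM, and every chloroplast row lay below that gap. All rows used together held 27.3 to 41.9% of the implied reads of a library. Levels of chloroplast genes without a row are not known, so the total chloroplast RNA is not known either. Within a group, the lowest correlation between libraries over the chloroplast genes ranged from 0.388 to 0.788. The lowest value belonged to eBL at 30 min, where replicate 3 stood apart from the other 2 libraries over all genes as well (r = 0.867, against at least 0.971 in the other groups).

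**Figure D1:**
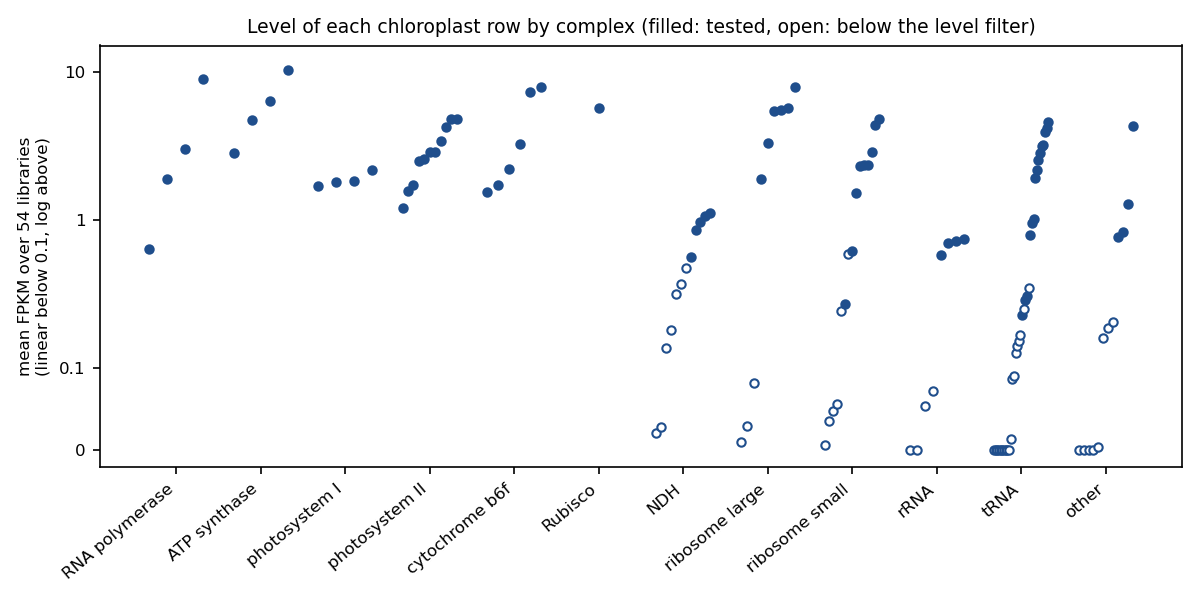
Mean level of each of the 120 chloroplast rows over all 54 libraries (FPKM, linear below 0.1 and logarithmic above), by complex. Filled points are rows that were tested and open points rows that were not; ATPB was highest at 10.3 FPKM, and some tRNA, rRNA and other rows were at 0.

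Among the chloroplast rows present, the subunits of the plastid RNA polymerase and of the ATP synthase gave the most reads. The 4 polymerase rows held 27.2% of the 154732 chloroplast reads and the 4 ATP synthase rows 19.6%. Photosystem II followed with 10.3% from 11 rows, the large and small ribosomal subunits with 7.48% and 6.47%, photosystem I with 5.90% and RBCL, the large subunit of Rubisco, with 5.67% from 1 row. The NDH complex, which returns electrons to the plastoquinone pool, gave 3.16% from 12 rows, the cytochrome b6f complex 3.79%, the rRNAs 4.01% and the tRNAs 1.78%. Per length, ATPB was highest of these rows with a mean of 10.3 FPKM. RPOB followed at 8.90, PETN at 7.93, RPL14 at 7.92 and ORF31, which RefSeq names petL, at 7.34. These 5 include PETN and ORF31, which code for very small proteins and had medians of 13 and 14 reads per library. Within the rpo operon the level fell along the gene order, from 8.90 FPKM for RPOB to 3.02 for RPOC1 and 0.636 for RPOC2.

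Rows of the inverted repeat, of which the plastid genome holds 2 copies, were mostly empty. Such copies account for 36 rows, of which 6 were tested. The copies of rpl2 are identical in sequence, yet 1 row was given 72 reads and the other 2932. The copies of the 16S rRNA shared their reads almost evenly, 1186 against 1155, and those of the 23S rRNA had 1758 and 2097. The rule by which reads were assigned to the copies is not stated in the labels, and values of these rows are uncertain. The rows of YCF2, whose protein is essential in tobacco plastids, held 1 and 3 reads, ACCD, a subunit of acetyl-CoA carboxylase, a mean of 0.205 FPKM and the longer YCF1 row 0.188 FPKM, and none was tested.

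At 5 min after treatment, no chloroplast gene was called higher than control with any compound, and between 2 and 21 were called lower. A call is an adjusted p under 0.05 by limma on log2(FPKM + 1), with Benjamini-Hochberg adjustment over all genes tested, and log2 changes are on that scale, which understates the change of low genes. GV lowered 7 of the 73 members, while 3.16% of all genes were called lower and 7.82% higher. IAA lowered 9, with 5.29% of all genes lower and 6.86% higher. ZT lowered 6, with 8.02% and 19.5% of all genes lower and higher. With eBL 2 were lower, with 1.07% and 2.27% of all genes. GA3 lowered 21 members, with 11% of all genes lower and 23.7% higher. The members' share of lower calls was above that of all genes for GV, IAA, eBL and GA3 and near it for ZT. Some of these lower calls are of the 23S rRNA rows, which were tested through the 5 min controls alone. The filter favoured those calls, and the shares without them were not computed. The 5 comparisons share their 3 control libraries.

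After 30 min the directions parted. GV gave no call among the 73 members by limma, with 9 at an unadjusted p under 0.05, while 1.51% of all genes were called higher and 3.48% lower. IAA raised 7 members and lowered 1, against 7.16% and 2.66% of all genes. ZT raised 8 and lowered 10, with 19.1% of all genes higher and 19.5% lower. For eBL 3 were higher and 18 lower, against 23.1% and 20.6% of all genes, and for GA3 3 were higher and 17 lower, against 14.4% and 16.8%. Without eBL replicate 3, 17 members in place of 21 were called for eBL and 12 in place of 8 for IAA, and without control replicate 2 there were 4 for IAA.

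After 180 min few members differed from control. GV raised 2 and lowered 1, with 5.59% of all genes higher and 3.58% lower, and IAA lowered 1, with 11.2% higher and 6.48% lower. ZT raised 5 and lowered 6, against 17.1% and 24.7% of all genes. With eBL 3 were higher and 7 lower, against 16.2% and 21.8%, and 3 were higher and 9 lower with GA3, against 17.3% and 23.6%. For these 3 compounds the members' shares lay below those of all genes in both directions. The lower call with GV and with IAA was of the tRNA row TRNI.2, also called lower with these 3 compounds, as was MATK. TRNI.2 and MATK reached a mean of 1 FPKM only in control, GV or IAA groups of the later times, which include the 180 min control. The level filter favoured those calls. The counts and shares without them, here and in the totals that follow, were not computed. Over the 15 comparisons with control, 51 of the 73 members were called at least once and 22 never, with 34 calls higher and 115 lower among 1095. That is 69.9% of the members called at least once, against 88.1% of all genes tested, with 3.11% of the members' values called higher and 10.5% lower, against 12.8% and 11.5% over all genes.

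**Figure D2:**
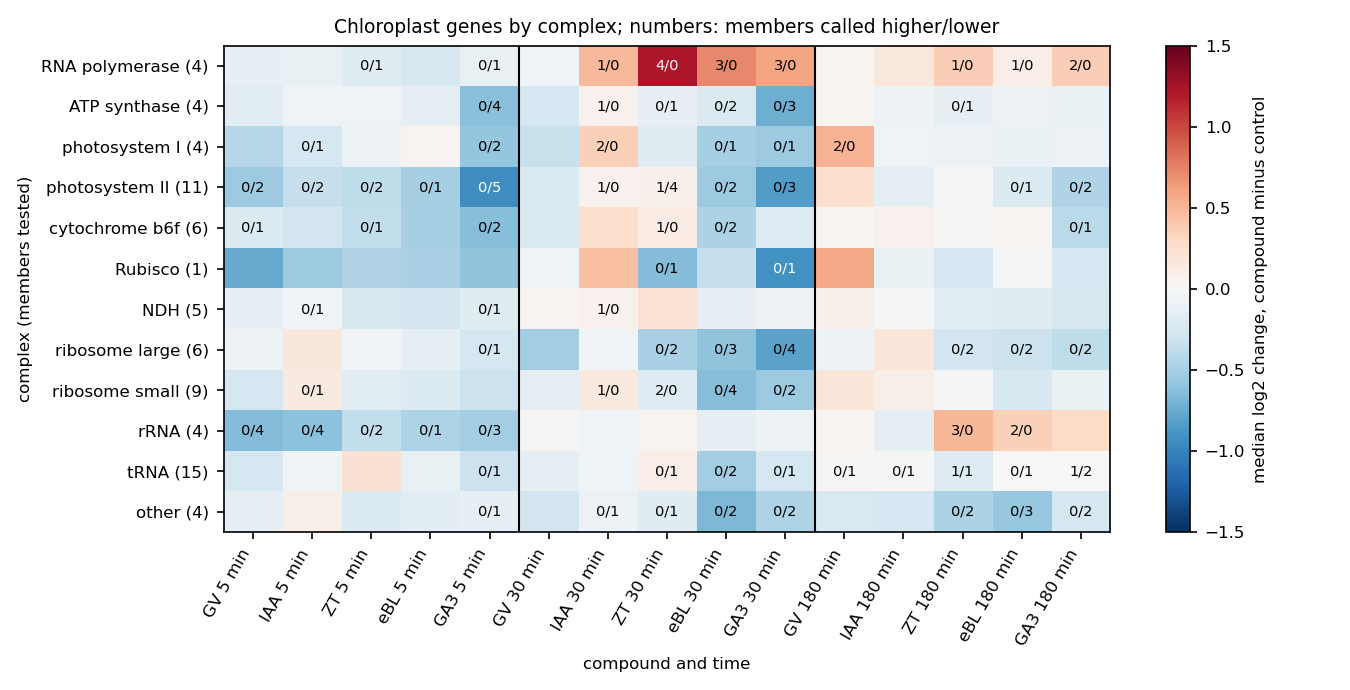
Median log2(FPKM + 1) change of the tested members of each complex (rows, with their number) for each compound and time against the control of that time (columns). Numbers in a cell count the members called higher and lower by limma. The 4 RNA polymerase genes were all called higher with ZT at 30 min, where the level filter favoured the call of RPOC2. The 4 ATP synthase genes were all called lower with GA3 at 5 min.

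The controls themselves differed between times, and this touches every comparison. From 5 to 30 min the control rose in 8 members and fell in 12, against 17.3% and 14.1% of all genes, and from 30 to 180 min 1 rose and 1 fell, against 13.4% and 9.08%. The 5 min control was the high group for several genes. PSBC, the CP43 core antenna protein of photosystem II, stood at 5.72, 7.37 and 5.59 FPKM in the 5 min controls, and the 15 libraries of the 5 compounds at that time lay between 1.72 and 4.16. No library of a compound reached the lowest control. Without control replicate 2 at 5 min the counts of members called were 4 for GV, 2 for IAA, 3 for ZT and 0 for eBL, and without GA3 replicate 1 the count was 13 for GA3. With the mean of the other 4 compounds as the reference in place of the control, a choice made after the values were seen, GV gave no call by limma among the 73 members, with 5.58% of all genes higher and 8.75% lower. By that reference 6 members were higher with IAA (8.87% of all genes higher, 16.2% lower), 2 with ZT (15.2% and 9.31%) and 1 with eBL (4.69% and 9.25%). With GA3 1 was higher and 9 were lower (22.9% and 15%).

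The order of columns in the table's header bears on the later times as well. The columns form 2 runs: the first holds all groups of 5 min followed by ZT, eBL and GA3 of 30 and 180 min (12 groups), and the second holds control, GV and IAA of 30 and 180 min (6 groups). What the runs stand for is not given in the sources used here. In 5 of the 73 members every group mean of the second run lay above every group mean of the first, and in 1 member every one lay below, against 1.35% and 1.57% of all genes. The members above were RPL22, RPS3, RPS19, the rpl2 row with reads and CEMA, and the member below was RPOC2. RPS19 reached a mean of 1 FPKM only in groups of the second run and RPOC2 only in groups of the first. The level filter therefore favoured the separation of RPS19 and RPOC2, which is not read as a result. RPL22, RPS3 and RPS19 are neighbours in the genome. The rpl2 row with most of the reads lies away from them, in the other copy of the inverted repeat, and the identical rpl2 row next to RPS19 was not tested. Comparisons of ZT, eBL and GA3 with control at 30 and 180 min, and of the control between 5 and 30 min, cross the runs, so compound and run cannot be told apart there. They are therefore given below also against the mean of the other 2 of these 3 compounds at the same time. By that reference, at 30 min 15 members were higher with ZT and none lower (14.7% and 16.9% of all genes), 3 higher and 12 lower with eBL (24.1% and 17.8%), and 6 lower with GA3 (6.87% higher and 12.3% lower among all genes). At 180 min 1 was higher with ZT (17.9% and 20.4%), none was called with eBL by limma (12% and 10.2%), and 1 was higher and 1 lower with GA3 (14.6% and 13.4%).

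All 4 core subunits of the plastid RNA polymerase changed in at least 1 comparison with control. RPOC1, which codes for the β′ subunit, was called in 9 of the 15 comparisons, more than any other member, higher in 7 and lower in 2. In the controls it stood at 4.59, 5.47 and 4.62 FPKM at 5 min, at 1.44, 0.949 and 0.908 at 30 min, and at 1.55, 1.29 and 1.56 at 180 min. The 5 min controls lay above all later ones, and the fall from 5 to 30 min was 1.50 on the log2 scale (adjusted p = 5.06e-10). All 4 subunits fell in the control over this step, which crosses the header runs: RPOC2 from 0.903 ± 0.0749 to 0.177 ± 0.0620 FPKM (SD, n = 3), RPOA from 1.80 ± 0.632 to 0.854 ± 0.450 with overlapping libraries, and RPOB from 11.0 ± 0.206 to 7.91 ± 0.735.

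With ZT at 30 min all 4 polymerase genes rose against the control, a comparison that crosses the header runs. RPOA, the α subunit, stood at 4.15, 4.15 and 3.26 FPKM in ZT against 1.36, 0.707 and 0.496 in the controls (log2 change 1.41 ± 0.22 SE, adjusted p = 2.26e-06). RPOC1 stood at 3.47, 5.54 and 4.59 (log2 change 1.39, adjusted p = 1.73e-09), RPOC2, the β″ subunit, at 1.30, 1.62 and 1.34 against 0.217, 0.209 and 0.106 (1.04, adjusted p = 1.30e-09), and RPOB, the β subunit, at 9.68, 10.7 and 11.8 against 8.74, 7.63 and 7.36 (0.39, adjusted p = 0.0121). In each of the 4 genes every ZT library lay above every control. RPOC2 reached a mean of 1 FPKM only in groups of the first run, among them ZT at 30 min. The level filter therefore favoured its higher calls with ZT, against the control and within the first run. Within the first header run, against the mean of eBL and GA3 at 30 min, ZT remained higher in RPOB (log2 0.48, adjusted p = 0.000678), RPOA (0.72, adjusted p = 0.00373) and RPOC2 (0.41, adjusted p = 0.00137). The polymerase rows together held 53.5 ± 4.95 rpm in ZT at 30 min and 29.3 ± 3.59 in the control (SD, n = 3). Beside this, the green tissue markers summed to 13507 ± 240 FPKM with ZT and 20436 ± 836 in the control, with 5 of 5 called lower, and the root markers to 15.3 ± 0.473 and 5.12 ± 1.28 FPKM, with 3 of 5 called higher and 1 lower. Their part in the result was not tested.

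RPOC1 also rose at 30 min with IAA, eBL and GA3. IAA and the control lie in the same header run: RPOC1 stood at 2.63, 2.46 and 3.06 FPKM with IAA, above all 3 controls (log2 change 0.83, adjusted p = 0.000190), and this call held in each of the 7 fits without 1 library. With eBL it was 4.81, 4.39 and 3.24 FPKM (1.29, adjusted p = 8.80e-09), and with GA3 3.45, 3.79 and 2.89 (1.06, adjusted p = 1.05e-06). The eBL and GA3 comparisons cross the header runs. Group means of RPOC1 were 2.67 to 4.89 FPKM in the first run and 1.02 to 2.72 in the second. RPOA and RPOC2 were also called higher at 30 min with eBL (0.77 and 0.68) and with GA3 (0.61 and 0.57). RPOC2 passed the level filter only through groups of the first run, which holds these eBL and GA3 groups. With GV RPOC1 was at 1.39, 1.26 and 0.413 FPKM, overlapped the controls and was not called. At 180 min RPOC1 was higher in ZT, at 4.07, 4.41 and 4.10 FPKM (1.08, adjusted p = 3.85e-07), than in the control, and against the mean of eBL and GA3 the log2 difference was 0.39 (adjusted p = 0.0207). With ZT at 5 min it was lower, at 2.71, 2.78 and 2.51 FPKM (log2 change -0.68, adjusted p = 0.000765).

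Of the nuclear genes for plastid transcription, 1 of 6 sigma factors and 1 of 2 phage-type polymerases were tested, and none of 12 proteins associated with the plastid-encoded polymerase. SIG5, a sigma factor known to respond to light and stress, was lower than control at 5 min with IAA (log2 change -0.71, adjusted p = 2.59e-07), ZT (-0.39) and GA3 (-0.40). It was higher with ZT at 30 min (0.35), and at 180 min lower with ZT (-0.75) and higher with IAA (0.40) and GA3 (0.23). RPOTMP, a phage-type polymerase, was lower at 5 min with IAA (-0.39) and ZT (-0.36) and higher at 30 min with ZT (0.36) and GA3 (0.32). At 180 min it was higher with ZT (0.32) and lower with eBL (-0.68) and GA3 (-0.74). In the control both fell from 5 to 30 min, SIG5 by 0.86 and RPOTMP by 0.27 on the log2 scale.

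**Figure D3:**
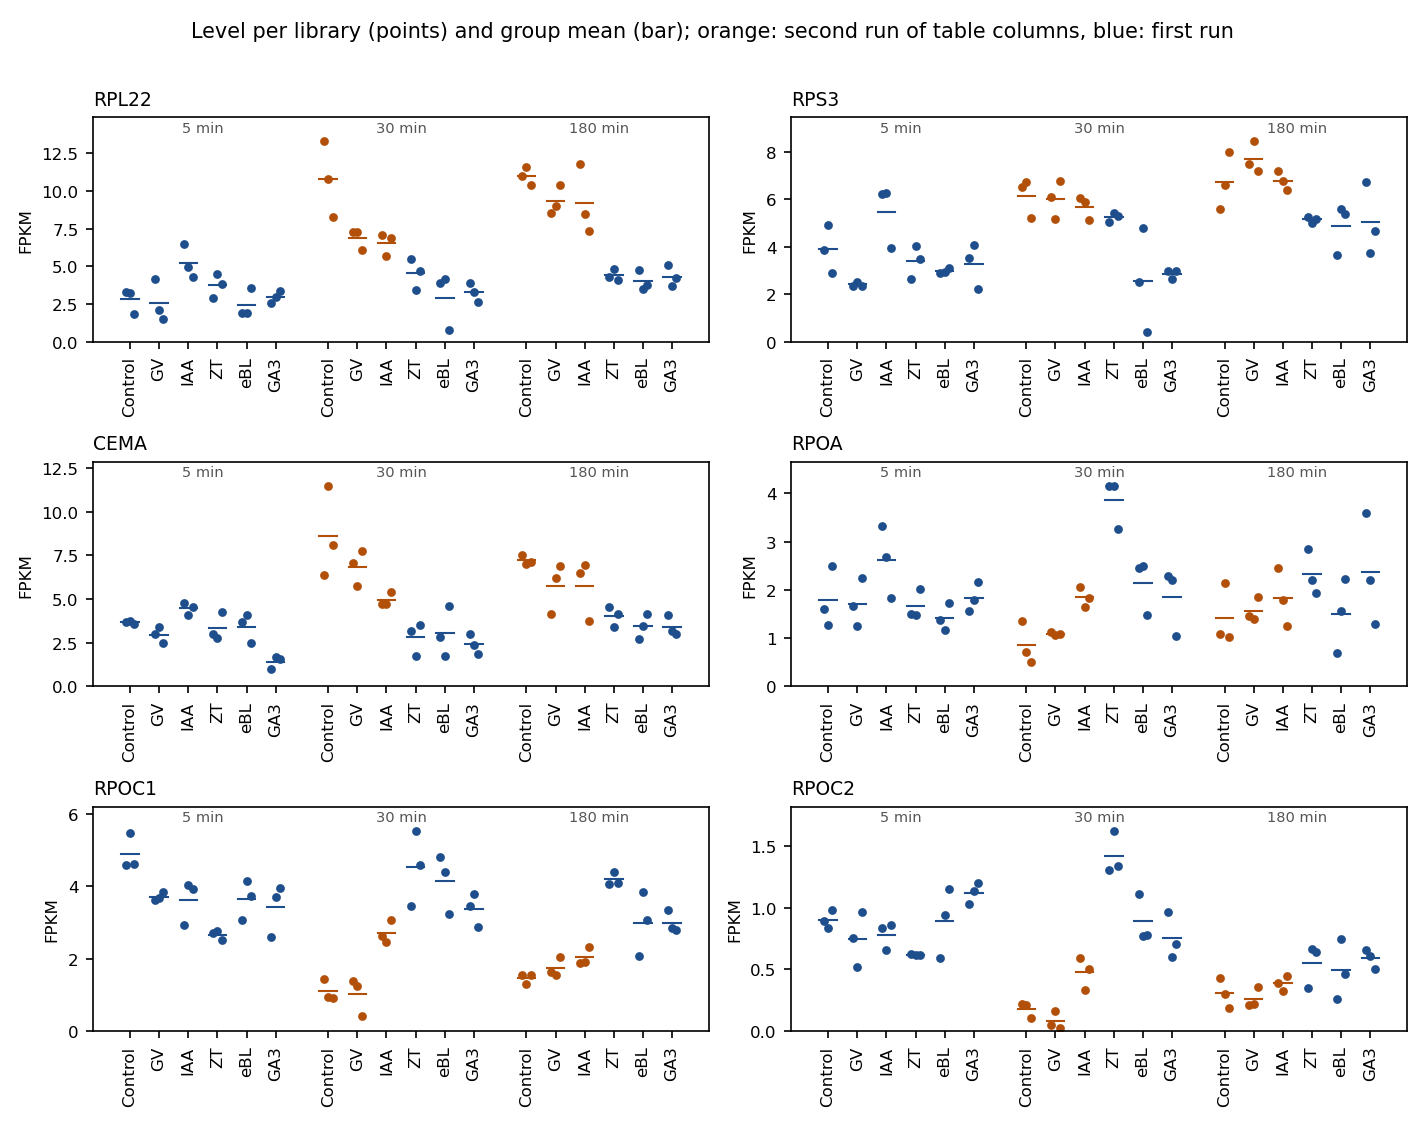
FPKM per library (points) and group mean (bars) of 6 chloroplast genes over the 18 groups, with orange for the groups in the second run of table columns and blue for those in the first. RPL22, RPS3 and CEMA group means are higher in the second run and those of RPOC2 lower; RPOA with ZT at 30 min reached 4.15 FPKM.

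The ATP synthase genes were lower with GA3 at 5 and 30 min. ATPB, the catalytic β subunit, stood at 4.64, 5.40 and 6.16 FPKM with GA3 at 5 min, and the controls at 10.1, 11.4 and 11.9. No library of the other 4 compounds at that time was below 9.39 FPKM. The change was -0.93 ± 0.16 SE on the log2 scale (adjusted p = 6.58e-06), and against the mean of the other 4 compounds it was -0.89 (adjusted p = 1.59e-07). ATPA, the α subunit, was at 2.67, 2.39 and 2.47 FPKM against 3.57, 3.65 and 4.11 (log2 change -0.44, adjusted p = 0.00406), and against the other compounds it was lower by 0.56 (log2 difference -0.56, adjusted p = 1.09e-05). ATPF and ATPI, of the membrane part of the enzyme, were called lower as well (-0.54 and -0.71, adjusted p = 0.0178 and 0.00940), so that all 4 members fell. ATPF lost its call in 4 of the 7 fits without 1 library. Scaled to the chloroplast genes instead of all reads, none of the 4 was called and the sign of ATPA and ATPF turned (0.19 and 0.16).

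After 30 min of GA3 3 of the 4 genes were lower than control, across the header runs. ATPB stood at 7.37, 5.34 and 6.48 FPKM against 12.7, 12.4 and 11.2 in the controls (log2 change -0.83, adjusted p = 5.87e-05). ATPA stood at 2.71, 2.28 and 3.23 FPKM against 5.13, 4.49 and 4.69 (-0.63, adjusted p = 9.96e-05), and ATPI at 1.34, 1.79 and 2.12 against 4.25, 6.17 and 4.51 (-1.12, adjusted p = 9.55e-05). Against the mean of ZT and eBL, in the same header run, ATPA was lower by a log2 difference of -0.83 (adjusted p = 1.68e-07) and ATPB by -0.41 (adjusted p = 0.0301). Beside this, the green tissue markers summed to 15683 ± 470 FPKM with GA3 and 20436 ± 836 in the control at 30 min (SD, n = 3), with 5 of 5 called lower. The root markers summed to 7.11 ± 0.559 and 5.12 ± 1.28 FPKM, with 2 of 5 called higher, and the part of either list in the result was not tested. At 180 min ATPB overlapped the control and was not called, at 11.8, 10.6 and 10.5 FPKM with GA3 and 10.5, 10.3 and 11.5 in the control. The GA3 effect on ATPB differed between 180 and 5 min by 0.96 on the log2 scale (interaction, limma, adjusted p = 0.000606). Together the ATP synthase rows held 15.3 ± 1.26 rpm with GA3 at 5 min, 18.0 ± 2.71 at 30 min and 30.5 ± 2.32 at 180 min, and 28.2 ± 1.85, 32.9 ± 1.76 and 31.5 ± 0.589 in the controls (SD, n = 3).

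**Figure D4:**
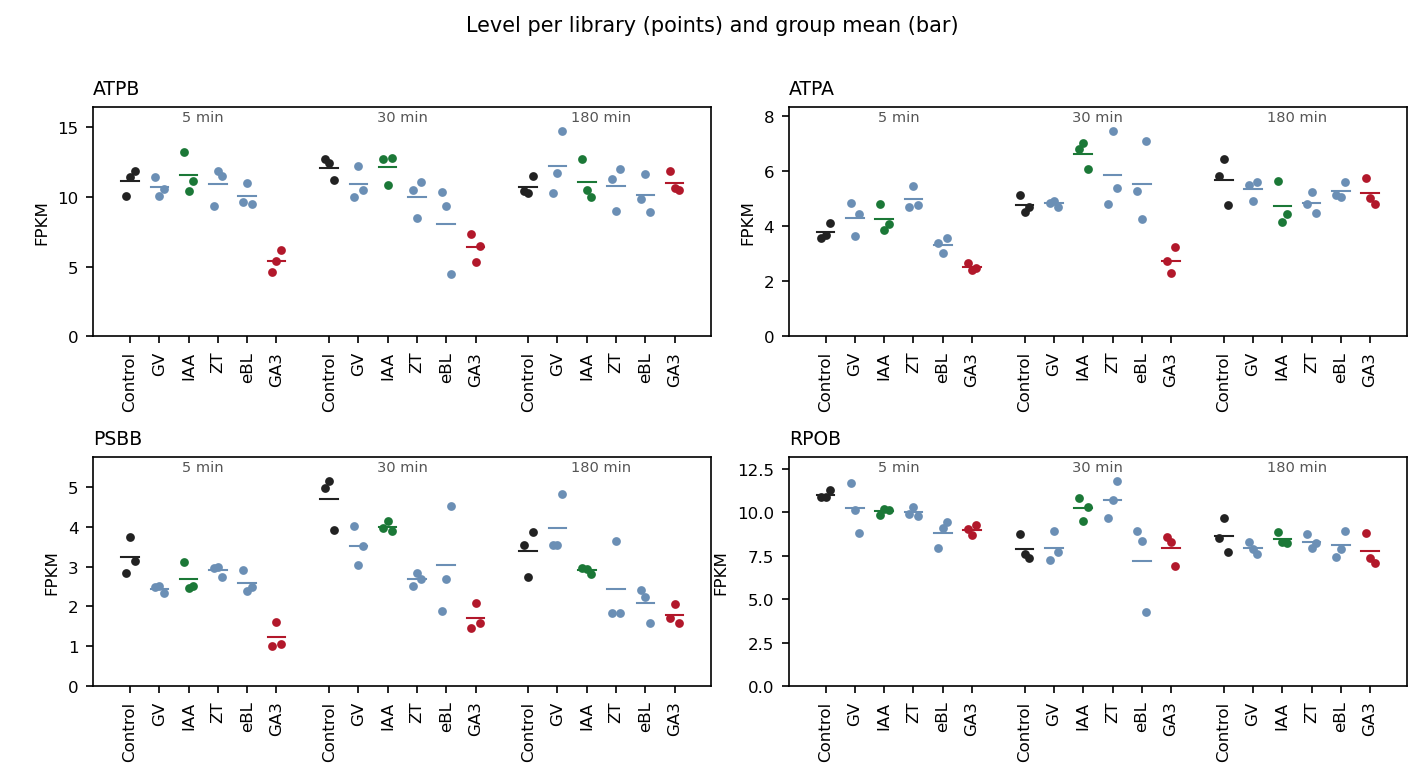
FPKM per library (points) and group mean (bars) of ATPB, ATPA, PSBB and RPOB over the 18 groups, with control in black, IAA in green, GA3 in red and the other compounds in blue. The GA3 libraries of ATPB lie between 4.64 and 7.37 FPKM at 5 and 30 min and between 10.5 and 11.8 at 180 min; those of RPOB lie between 6.92 and 9.27 throughout.

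Of the polymerase genes, 1 of 4 was called lower with GA3 at 5 min: RPOC1, at 2.60, 3.71 and 3.96 FPKM (log2 change -0.42, adjusted p = 0.0328), whose sign turned when libraries were scaled to the chloroplast genes (0.25). RPOB stood at 9.06, 8.67 and 9.27 FPKM against 10.9, 10.9 and 11.3 (log2 change -0.27, adjusted p = 0.103) and RPOC2 at 1.03, 1.14 and 1.20 against 0.894, 0.833 and 0.982 (0.16, adjusted p = 0.316). Against the other 4 compounds RPOC2 was higher (0.28, adjusted p = 0.0155). RPOC2 reached a mean of 1 FPKM with GA3 at 5 min but in no control group. The level filter therefore favoured its higher calls with GA3, here and when scaled to the chloroplast genes. Under that scaling, which moved the median of all genes by 0.62 on the log2 scale, RPOB (0.50, adjusted p = 0.000892), RPOC2 (0.61, adjusted p = 0.000121) and RPOA (0.59, adjusted p = 0.00806) were called higher with GA3, and 1 member in all was called lower. The chloroplast rows together held 111 ± 13.7 rpm with GA3 at 5 min and 176 ± 13.6 in the control (SD, n = 3). At the same time the summed level of the 5 root markers was 27.1 ± 0.243 FPKM with GA3 and 9.19 ± 1.34 in the control, with 4 of 5 called higher and 1 lower, and that of the 5 green tissue markers 15899 ± 335 and 17993 ± 141 FPKM, with 1 of 5 called lower; their part in the result was not tested.

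IAA raised both reaction centre genes of photosystem I at 30 min. PSAA, which with PSAB forms the reaction centre, stood at 3.46, 4.48 and 4.84 FPKM with IAA and at 1.57, 2.25 and 1.60 in the controls (log2 change 0.91 ± 0.21 SE, adjusted p = 0.00249). PSAB stood at 4.09, 3.91 and 3.81 FPKM against 1.45, 1.39 and 1.26 (1.06 ± 0.20 SE, adjusted p = 0.000229). All IAA libraries lay above all controls in both genes, both calls held in each of the 7 fits without 1 library, and both held when libraries were scaled to the chloroplast genes (0.73 and 0.87). PSAC, which binds iron-sulfur clusters, and PSAI, a small subunit, were not called. Photosystem I rows together held 19.4 ± 1.93 rpm with IAA and 8.41 ± 1.62 in the control (SD, n = 3). The IAA and control groups lie in the same header run, and none of the 5 green tissue markers was called by limma. The root markers summed to 10.1 ± 0.696 FPKM with IAA and 5.12 ± 1.28 in the control, with 1 of 5 called higher, and their part in the result was not tested.

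IAA at 30 min also raised PSBC, from 1.30, 1.82 and 2.0 to 3.85, 3.75 and 4.81 FPKM (log2 change 0.93, adjusted p = 0.0118), and ATPA, from 5.13, 4.49 and 4.69 to 6.78, 6.99 and 6.07 FPKM (0.40, adjusted p = 0.0303). RBCL stood at 9.91, 9.55 and 8.80 FPKM, above the controls at 5.81, 7.07 and 6.97, but was not called. RPOC1 and NDHE, of the NDH complex, were also called higher. NDHE had few reads and passed the level filter only through groups of the second header run. Of 26 chloroplast members of the photosystems, the cytochrome complex, the ATP synthase and Rubisco, 4 rose and none fell with IAA at 30 min. At 5 min PSAB had been lower with IAA, at 1.49, 1.23 and 0.781 FPKM against 1.81, 2.78 and 2.51 (-0.64, adjusted p = 0.0320), a call lost without control replicate 2 or 3 or IAA replicate 2 or 3. At 180 min none of these members was called.

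GV at 180 min raised the same pair. PSAA stood at 2.20, 2.44 and 5.38 FPKM against 1.52, 1.66 and 1.35 in the controls (log2 change 0.72, adjusted p = 0.0208), and PSAB at 2.25, 2.90 and 5.43 against 1.55, 1.69 and 1.66 (0.72, adjusted p = 0.0171). All 3 GV libraries lay above the controls, but replicate 3, the library with 4025 chloroplast reads, was far above the other 2. Without it none of the 73 members was called for GV at 180 min. The root markers summed to 9.52 ± 0.507 FPKM with GV and 5.62 ± 0.591 in the control (SD, n = 3), with 1 of 5 called higher, and 1 of 5 green tissue markers was called lower; their part in the result was not tested. RBCL, at 8.54, 8.33 and 12.2 FPKM against 5.21, 5.77 and 7.46, was not called. GA3 lowered PSAA and PSAB at 5 min (-0.78 and -0.66, adjusted p = 0.00321 and 0.00986), to 0.594, 0.830 and 1.07 and to 0.854, 1.26 and 1.25 FPKM.

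**Figure D5:**
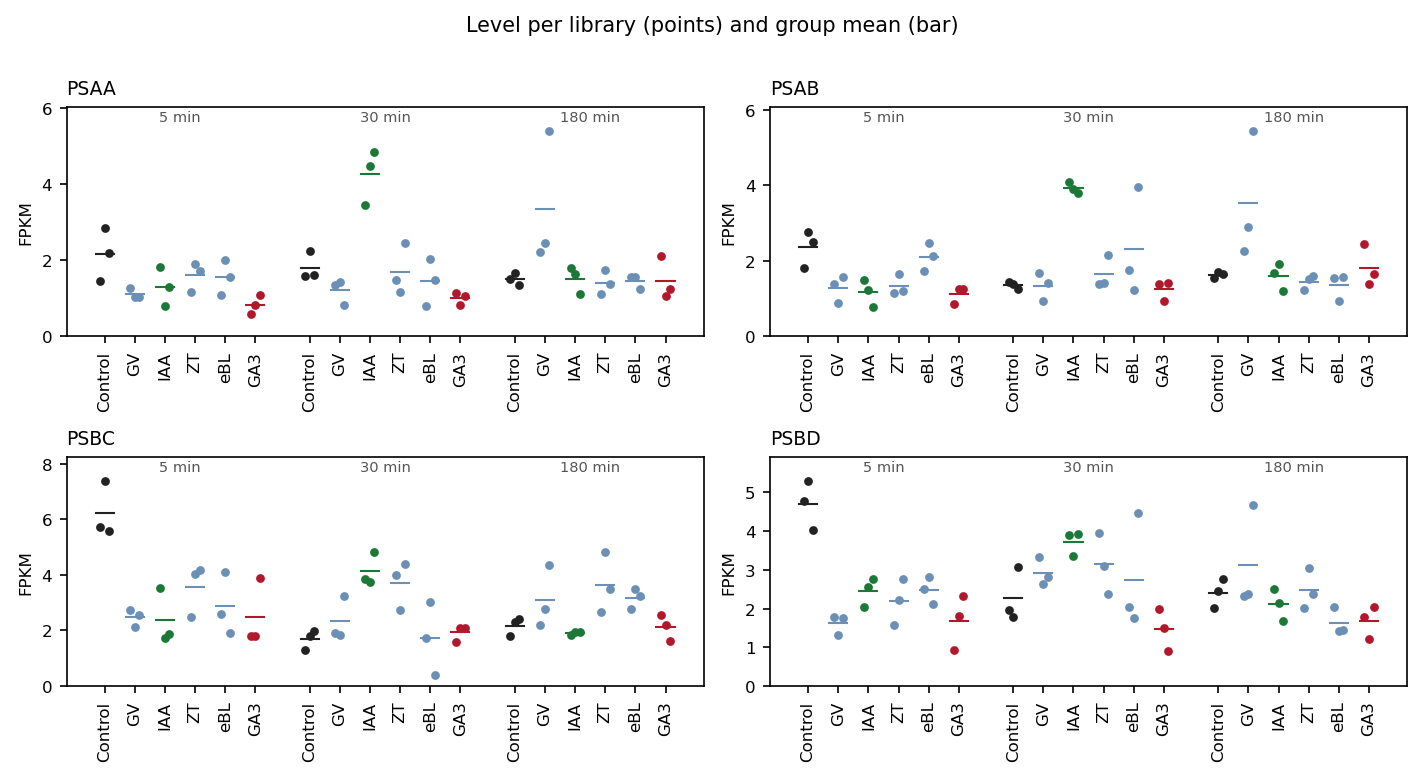
FPKM per library (points) and group mean (bars) of PSAA, PSAB, PSBC and PSBD over the 18 groups, coloured as in the plot of ATPB. PSAB with IAA at 30 min lies between 3.81 and 4.09 FPKM, and PSBC in the 5 min controls between 5.59 and 7.37.

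In photosystem II the overlapping pair PSBD and PSBC was lower than control at 5 min with nearly every compound. PSBD, the D2 reaction centre protein, stood at 4.79, 5.29 and 4.02 FPKM in the controls. It was 1.79, 1.31 and 1.75 with GV (log2 change -1.12, adjusted p = 0.000156), and 0.934, 1.81 and 2.33 with GA3 (-1.11, adjusted p = 4.28e-05), with IAA and ZT also called. With eBL it was 2.50, 2.83 and 2.11 FPKM and was not called, although all 3 values lay below the controls. PSBC was called with all 5 compounds, by -1.06 for GV, -1.13 for IAA, -0.68 for ZT, -0.93 for eBL and -1.09 for GA3 (adjusted p = 0.00297, 0.00151, 0.0406, 0.0300 and 0.000663). The calls for GV, IAA and GA3 held in each of the 7 fits without 1 library, and those for ZT and eBL were lost in 4 and 5 of them. With the other 4 compounds as the reference PSBC was called for no compound. The control itself fell in both genes from 5 to 30 min, PSBC to 1.30, 1.82 and 2.0 FPKM (-1.42, adjusted p = 2.49e-05).

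PSBB, the CP47 core antenna protein, was lower with GA3 than in the control and than with other compounds at 5 and 30 min. It stood at 1.01, 1.62 and 1.07 FPKM with GA3 at 5 min and at 2.84, 3.74 and 3.14 in the controls (log2 change -0.93, adjusted p = 9.90e-06), and against the other 4 compounds it was lower by 0.72 (log2 difference -0.72, adjusted p = 1.24e-05). At 30 min it stood at 1.45, 2.08 and 1.58 against 4.99, 5.15 and 3.93 (-1.07, adjusted p = 1.39e-06), and the difference from the mean of ZT and eBL was -0.49 (adjusted p = 0.00977). At 180 min it was still lower than control, at 1.70, 2.07 and 1.59 against 3.54, 2.75 and 3.88 (-0.65, adjusted p = 0.00116), but not called against ZT and eBL. PSBB was called lower with ZT at 30 min and with eBL at 30 and 180 min as well, and higher in no comparison with control.

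The small photosystem II subunits rested on few reads. PSBE, the α subunit of cytochrome b559, was lower with GA3 at 5, 30 and 180 min (log2 changes -0.94, -0.79 and -1.14, adjusted p = 0.0168, 0.0481 and 0.00316). At 180 min it stood at 3.44, 1.66 and 2.55 FPKM against 4.45, 8.05 and 8.03. PSBL was lower with GA3 at 5 min, at 2.54, 0.864 and 1.44 FPKM against 3.84, 7.78 and 5.40 (-1.36, adjusted p = 0.0412). PSBJ was lower with ZT at 30 min, at 1.54, 1.22 and 0.417 FPKM against 4.05, 12.7 and 6.66 (-2.02, adjusted p = 0.0109). PSBL and PSBJ had medians of 9 and 10.5 reads per library.

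Most nuclear subunits of the same complexes, and few of the chloroplast members, were lower than control at 180 min with 4 of the compounds. Of 24 nuclear photosystem, cytochrome and ATP synthase subunits tested, 22 fell with IAA, 19 with ZT, 17 with eBL and 18 with GA3, and none rose, with medians of -0.60, -0.42, -0.35 and -0.38 on the log2 scale. Of the 26 chloroplast members 0, 1, 1 and 3 fell and none rose, with medians of -0.07, -0.07, -0.14 and -0.14. Over all genes tested 6.48%, 24.7%, 21.8% and 23.6% were called lower in these 4 comparisons. At 30 min 19 nuclear subunits and 6 chloroplast members were lower with ZT, 23 and 7 with eBL and 14 and 8 with GA3, against 19.5%, 20.6% and 16.8% of all genes, and 2 chloroplast members were higher with ZT. Of the 5 green tissue markers, 4 fell with IAA and 3 each with ZT, eBL and GA3 at 180 min. The difference between the lists was not tested. The nuclear subunits tested had means of 383 to 4566 FPKM, and no chloroplast row had a mean above 10.3. Low genes rest on fewer reads and their log2 changes are understated, so counts and medians of the 2 lists are not directly comparable. The comparisons of ZT, eBL and GA3 with control at 30 and 180 min also cross the header runs. At 5 min with GA3, 14 of the 24 nuclear subunits and 13 of the 26 chloroplast members fell, against 11% of all genes, and none of either rose.

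RBCL was lower than control with GA3 at 30 min, at 2.63, 3.59 and 2.99 FPKM against 5.81, 7.07 and 6.97 (log2 change -0.91, adjusted p = 0.00651), and with ZT, at 3.28, 3.93 and 4.38 (-0.65, adjusted p = 0.0443). The ZT call was lost in 5 of the 7 fits without 1 library. RBCL was called in no other comparison of a compound with control, and its eBL libraries at 30 min spread from 2.45 to 11.7 FPKM. The 3 nuclear small-subunit genes tested were all called lower with GA3 at 30 min, with ZT at 30 and 180 min and with IAA at 180 min.

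In the cytochrome b6f complex, which passes electrons between the photosystems, PETD, subunit IV, was lower at 5 min with GV, at 1.59, 0.888 and 1.07 FPKM against 2.48, 3.14 and 3.82 (log2 change -0.93, adjusted p = 0.0409), and with ZT (-0.82, adjusted p = 0.0405). PETA, cytochrome f, was lower with GA3 at 5 min, at 0.772, 1.26 and 1.28 FPKM against 3.06, 2.15 and 2.13 (-0.71, adjusted p = 0.00782). PETN was lower with eBL at 30 min, at 3.92, 3.44 and 0 FPKM against 13.8, 19.1 and 10.9 (-2.45, adjusted p = 0.000520), and the value of 0 came from the library that stood apart. That call held without it. ORF31 was lower with GA3 at 5 min (-1.20, adjusted p = 0.0479) and at 180 min, at 2.65, 3.88 and 4.13 FPKM against 9.56, 17.7 and 8.03 (-1.43, adjusted p = 0.0150), where it was not called against the mean of ZT and eBL.

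The NDH complex was thinly covered. Of its 12 rows 5 were tested, and the highest, NDHJ, had a mean of 1.11 FPKM and a median of 10 reads. NDHD fell with GA3 at 5 min, to 0.261, 0.399 and 0.591 FPKM from 0.656, 1.10 and 1.21 (log2 change -0.48, adjusted p = 0.0100). NDHE was lower with IAA at 5 min (-0.81, adjusted p = 0.0419) and higher with it at 30 min (0.92, adjusted p = 0.0216), and had a median of 2.5 reads. It reached a mean of 1 FPKM only in groups of the second header run, which holds IAA at 30 min. No NDH member was called at 180 min with any compound.

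Of the 6 members whose group means separated the header runs, 4 were ribosomal protein genes. RPL22 stood at 3.31, 3.25 and 1.85 FPKM in the 5 min controls, at 13.3, 10.8 and 8.25 in those of 30 min, and at 11.0, 11.6 and 10.4 in those of 180 min. Its group means were 6.55 to 11.0 FPKM in the second run and 2.44 to 5.25 in the first. The calls of RPL22 as lower than control with ZT, eBL and GA3 at 30 and 180 min, with log2 changes from -1.09 to -1.72, therefore all cross the runs, and against the other 2 compounds of the first run RPL22 was called for none of them. RPS3, which shares its first 16 bases with RPL22, had group means of 5.69 to 7.70 FPKM in the second run and 2.41 to 5.48 in the first. Within the first run RPS3 was higher with ZT at 30 min, at 5.04, 5.41 and 5.31 FPKM, than the mean of eBL and GA3 (log2 difference 0.86, adjusted p = 0.00168). The rpl2 row had 3.83 to 4.87 FPKM in the second run and 1.90 to 3.69 in the first, and RPS19, with a median of 3 reads, 0.783 to 1.40 and 0.114 to 0.737. RPS19 passed the level filter only through the second run.

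At 5 min, where all groups lie in the first run, IAA was higher than the mean of the other 4 compounds in RPL22 (log2 difference 0.70, adjusted p = 0.00825), RPS3 (0.68, adjusted p = 0.00730), RPL14 (0.47, adjusted p = 0.0394) and RPS12A (1.17, adjusted p = 0.0199). RPL22 stood at 6.49, 4.96 and 4.30 FPKM and RPS3 at 6.24, 6.26 and 3.93. None of the 4 was called against the control, and 8.87% of all genes were higher with IAA by the same reference. RPL33, of the large subunit, was lower at 30 min with GA3, at 2.01, 0.742 and 3.32 FPKM against 7.44, 7.77 and 7.06 (log2 change -1.57, adjusted p = 4.27e-05), with ZT (-0.88, adjusted p = 0.0135) and with eBL (-0.95, adjusted p = 0.00705), all across the runs. RPS4 was lower with GA3 at 30 min, at 0.749, 0.656 and 1.02 FPKM against 2.55, 2.49 and 2.88 (-1.01, adjusted p = 0.000105). RPL14, the highest row of the ribosome, was called in no comparison with control.

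The rRNA rows were low and were highest in the 5 min controls. The 8 rRNA rows together gave 13.0 ± 4.16 rpm in the 5 min controls and 4.64 ± 0.858 to 7.91 ± 3.57 with the 5 compounds (SD, n = 3). Both copies of the 16S and of the 23S rRNA were tested. The 23S rows reached a mean of 1 FPKM only in the 5 min controls and were tested through that group alone, so their calls as lower than it are not read as a result. Both 16S rows were called lower with GV and with IAA, and 1 of them with ZT, eBL and GA3, while 3.16%, 5.29%, 8.02%, 1.07% and 11% of all genes were lower with these compounds in that order. Without control replicate 2, of these 16S calls that of RRN16S.2 with GV alone passed the threshold, and leaving out control replicate 3 or a library of the compound also ended some of the others. The second copy of the 16S rRNA, RRN16S.2, stood at 1.24, 2.78 and 2.05 FPKM in the controls and at 0.585, 0.395 and 0.659 with GV (log2 change -0.94, adjusted p = 0.000111). At 180 min the sign was the opposite: RRN16S.2 stood at 1.13, 1.43 and 0.926 FPKM with ZT against 0.342, 0.348 and 0.485 (0.63, adjusted p = 0.00293) and at 0.757, 1.20 and 1.06 with eBL (0.52, adjusted p = 0.0150). These later differences cross the header runs, and neither was called against the other 2 compounds of the first run. Identical copies share reads, so the 2 rows of a pair are not independent.

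The tRNA rows had medians of at most 6 reads among those tested, and a single read moved them by much of their value. TRNT.2 was lower than control at 30 min with ZT, eBL and GA3 (log2 changes -1.99, -2.79 and -2.54, adjusted p = 0.0149, 0.000692 and 0.00282), from 8.87, 5.16 and 8.22 FPKM in the controls, and it had risen in the control from 5 min (1.95, adjusted p = 0.0210). TRNS.2 was lower with GA3 at 5 min, at 0, 2.20 and 1.22 FPKM against 5.42, 7.70 and 5.15 (-1.87, adjusted p = 0.0114). TRNP was higher with ZT at 180 min, at 7.36, 10.9 and 12.0 FPKM against 2.76, 1.28 and 3.91 (1.65, adjusted p = 0.0193).

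Among the remaining members, CEMA, a chloroplast envelope protein, was called lower in 8 of the 15 comparisons and higher in none. With GA3 at 5 min it stood at 1.01, 1.68 and 1.55 FPKM against 3.69, 3.74 and 3.59 (log2 change -0.96, adjusted p = 0.000295), and the difference from the other 4 compounds was -0.90 (adjusted p = 2.40e-05). At 30 min the controls stood at 6.35, 11.5 and 8.07 FPKM. IAA, in the same header run, was lower at 4.73, 4.71 and 5.43 (-0.66, adjusted p = 0.0365), a call lost in 5 of the 7 fits without 1 library. ZT (-1.34), eBL (-1.28) and GA3 (-1.48) were lower too, as they were at 180 min (-0.72, -0.90 and -0.90), but across the runs, and CEMA was called for none of them against the other 2 compounds. MATK, the maturase of plastid introns, was lower with ZT, eBL and GA3 at 180 min, by -0.43, -0.44 and -0.42 (adjusted p = 0.0131, 0.0122 and 0.0159), again across the runs. MATK reached a mean of 1 FPKM only in groups of the second run, which holds the 180 min control. The level filter favoured these calls, and they are not read as a result.

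The mitochondrial rows, also organelle RNA, were in part higher than control at 5 min. With GV 13 of 22 tested mitochondrial genes were called higher than control, and their rpm were 27.8 ± 6.99 against 7.04 ± 0.381 in the control (SD, n = 3). With ZT 8 were higher, with GA3 5, with eBL 1 and with IAA 0. Of all genes 7.82% were higher with GV, 19.5% with ZT, 23.7% with GA3, 2.27% with eBL and 6.86% with IAA. The mitochondrial share was thus near that of all genes with GA3. Only 22 of the 149 mitochondrial rows passed the level filter. Mitochondrial rpm were highest over the 54 libraries with GV at 5 min (35.5 in replicate 1), so the filter could favour rows high in that group. How many rows passed through that group alone was not computed. The medians of the mitochondrial log2 changes were 0.81, 0.43, 0.34, 0.03 and 0.16 for GV, ZT, GA3, eBL and IAA. Those of the chloroplast genes were -0.26, -0.20, -0.48, -0.27 and -0.13.

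Whether a compound's effect differed between 180 and 5 min was tested as an interaction. For GV 9 of the 73 members had a higher effect at 180 min and none a lower one (4.29% and 5.46% of all genes), for IAA 3 and 1 (8.94% and 7.45%), for ZT 9 and 5 (13.3% and 27.7%), for eBL 5 and 3 (8.05% and 14.5%), and for GA3 10 and 2 (12.6% and 27.4%). PSBC was among the higher ones for all 5 compounds, with differences from 1.02 to 1.40 on the log2 scale, and RPOC1 for 4 of them, among which ZT had 1.76 (adjusted p = 1.86e-08). RPL22 was among the lower ones for ZT (-1.48), eBL (-1.11) and GA3 (-1.26). For GV the members included PSAA (1.29), PSAB (1.29), RBCL (1.33) and PSBD (1.36, adjusted p = 0.00138). PSAA, PSAB and RBCL were highest at 180 min in GV replicate 3, without which no member was called for GV against control at that time. The count for this difference of GV was at least 5 in each of the 13 fits without 1 library. The higher ones also include 23S rRNA rows, tested through the 5 min controls alone: RRN23S.2 for GV, RRN23S.1 for eBL and both for ZT and GA3. The lower ones include TRNI.2 for IAA, where it is the only one, and for ZT and eBL, and MATK for ZT and GA3. TRNI.2 and MATK reached a mean of 1 FPKM only in groups of the second header run, which holds the 180 min control. The level filter favoured these calls. Each of the differences above rests on the 5 min controls, and those of ZT, eBL and GA3 also on controls of the other header run.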

How the data were processed

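RNA of 54 Arabidopsis seedling libraries (18 groups of 3) was analysed from 1 deposited table. Its header names no unit. The values were taken as FPKM made by the authors, since for each gene they were whole multiples of 1 read per length and library (100% of values within 0.05 of a whole read), which also gave the implied reads. Per the submitters' processing notes Bowtie2 2.2.3 and TAIR10 were used. How reads were counted, shared between copies or assigned a strand is not given in the sources used here. Of 24000 lines, 3 damaged ones were left out. Columns were matched to samples by name, those of GV by elimination.

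The 10622 genes whose mean reached 1 FPKM in any group were fitted as log2(FPKM + 1) with limma 3.58.1 in R 4.3.3 (trend, robust), with 1 mean per group over all 54 libraries and Benjamini-Hochberg adjustment over all genes tested. The depth was 17.8 to 23.8 M implied reads per library. The fits were tested on simulated data. Genes were named by rule: for each comparison up to 3 called members in each direction whose groups did not overlap and whose higher mean was at least 5 FPKM, the highest member of each complex, a few fixed genes (RBCL, ACCD, MATK, YCF1, YCF2) and the called nuclear list genes of smallest p. Other members named were chosen after their values were seen. The members and lists were chosen with earlier results of these data known. Alternatives were a pseudocount of 0.1, no filter, quantile normalization, scaling to nuclear or to chloroplast genes, the replicate number as a block, other reference groups and leaving out each library. The replicate numbers did not pair the libraries. Some members are counted but not reported here by name.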

Additional observations from a re-analysis of the deposited data

Results flagged for a closer look

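For each compound the effect on some chloroplast genes differed between 180 and 5 min by the test of the difference itself (interaction, limma, adjusted p under 0.05). This was so for 9 members with GV, 4 with IAA, 14 with ZT, 8 with eBL and 12 with GA3. The 5 comparisons share the controls of both times. Without control replicate 2 at 5 min the counts were 5 for GV, 1 for IAA and 5 for eBL.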

How the results depend on the processing

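The counts of chloroplast genes called depended on the setting as follows, and the cause was not tested. With a pseudocount of 0.1 the counts were 0 for eBL at 5 min, 0 for IAA at 180 min, and 5 and 1 for the difference between 180 and 5 min of GV and IAA. Without the filter on low values they were 0 for eBL at 5 min and 1 for the difference of IAA. Quantile normalization gave 11 for GV, 12 for ZT, 5 for eBL and 34 for GA3 at 5 min, 1 for GV at 30 min and 2 for IAA at 180 min. Scaling to nuclear genes gave 4 for eBL at 5 min. Scaling to chloroplast genes gave 3 for IAA, 3 for ZT (all higher, against 6 lower), 0 for eBL and 8 for GA3 at 5 min (7 higher and 1 lower, against 0 and 21), 4 for IAA and 11 for ZT at 30 min, 0 for GV, 6 for eBL and 7 for GA3 at 180 min, 12 and 1 for the control from 5 to 30 and from 30 to 180 min, and 5, 1, 9, 5 and 5 for the differences of GV, IAA, ZT, eBL and GA3. Of 171 called values, 5 turned in sign under this last scaling (ATPA, ATPF and RPOC1 with GA3 at 5 min, ATPB and PSBB with eBL at 30 min) and 0 under the quantile or nuclear one. With the other 4 compounds as reference, chosen after seeing the data, the 5 min counts were 0 for GV, 2 for ZT, 1 for eBL and 10 for GA3. By that reference the calls of IAA (6), ZT and eBL were all higher, where all calls against the control were lower. With the other 2 of ZT, eBL and GA3 as reference they were 6 for GA3 at 30 min and 1, 0 and 2 for ZT, eBL and GA3 at 180 min. With the replicate number as a block the count was 4 for eBL at 5 min, and no other count moved by over 1.5 times. Of 45 pairs of groups, 0 had a correlation of same-numbered libraries over 0.1.

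Leaving out 1 library at a time gave, at 5 min, 4 to 10 for GV, 2 to 12 for IAA, 3 to 10 for ZT, 0 to 5 for eBL and 13 to 27 for GA3. At 30 min it gave 0 to 2 for GV, 4 to 12 for IAA, 14 to 19 for ZT, 17 to 23 for eBL and 15 to 20 for GA3. At 180 min it gave 0 to 4 for GV, 0 to 2 for IAA, 7 to 14 for ZT, 7 to 10 for eBL and 7 to 13 for GA3. The control gave 14 to 24 from 5 to 30 min and 2 to 4 from 30 to 180 min. The differences between 180 and 5 min gave 5 to 10 for GV, 1 to 6 for IAA, 9 to 15 for ZT, 5 to 9 for eBL and 7 to 12 for GA3. The lowest counts for GV, IAA, ZT and eBL at 5 min came without control replicate 2, the lowest for GA3 at 5 min without GA3 replicate 1, that of IAA at 30 min without control replicate 2, and that of GV at 180 min without GV replicate 3. At 1925 to 4025 chloroplast reads per library, most tRNA, NDH and small-subunit rows rest on few reads.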
